A study of Homo sapiens with 12 samples.

Results

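The genes described here encode the subunits of the proteasome and the factors that assemble it. They were taken by symbol from the gene table, as every gene named PSMA, PSMB, PSMC, PSMD, PSME, PSMF or PSMG followed by a number, together with POMP. This gave 49 genes of 59577 in the table, and 47 of them had a mean of at least 1 TPM over all samples and were tested. TPM is a transcript abundance per unit of length, scaled to a common total in each sample. RNA was sequenced from H1299, an established human non-small cell lung carcinoma line that the labels call lung adenocarcinoma. The normoxia group (n = 6) was kept at 21% O2, 5% CO2 and 74% N2, and the hyperoxia group (n = 6) at 60% O2, 5% CO2 and 35% N2 for 24 h, in a gas incubator meant to imitate supplemental oxygen. No other agent or allele is named for either group, and all 12 samples are of this 1 line. Whether each sample was a culture of its own is not given by the labels, and the p-values then reflect spread among the sequenced samples that could be purely technical.

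The proteasome degrades proteins that carry ubiquitin chains. Its barrel-shaped 20S core stacks rings of alpha subunits (PSMA genes), which form the gate, around rings of beta subunits (PSMB genes), of which PSMB5, PSMB6 and PSMB7 hold the active sites. The 19S regulator caps the core to give the 26S proteasome: its base contains the ring of ATPases (PSMC genes) that unfold the substrate, and its lid removes the ubiquitin chain. Other caps (PSME genes), an inhibitor (PSMF1) and dedicated chaperones (PSMG genes, POMP, PSMD5, PSMD9 and PSMD10) complete the family. Under cytokine signals cells can exchange the active-site subunits for PSMB8, PSMB9 and PSMB10, which gives the immunoproteasome. Transcription of proteasome genes is known to be raised together by NFE2L1 (NRF1) when proteasome activity falls, and by NFE2L2 (NRF2) under oxidative stress, both through antioxidant response elements.

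Because the family is known for shared promoter elements, the promoter windows of its genes were read from RefSeq (assembly GRCh38.p14). Each window holds 250 bases before and 50 bases after a transcript start, and 43 of the 49 genes had an entry; PSMA7, PSMB1, PSMB6, PSMB7, PSMD4 and PSMG3 had none. The core of the antioxidant response element, TGACNNNGC, was searched on both strands. The bases before the start are shown for 2 lid genes that hold the motif and rose at 60% oxygen (PSMD3 and PSMD12) and for a core gene that holds it and did not pass the test (PSMB3), each 5′ to 3′ in the direction of transcription with the motif in capitals. The motif starts at base 214 in PSMD3 (chr17:39980557-39980806, plus strand), at base 86 in PSMD12 (chr17:67366578-67366827, minus strand) and at base 147 in PSMB3 (chr17:38752491-38752740, plus strand), counted from 1 at the 5′ end of the printed run.
PSMD3: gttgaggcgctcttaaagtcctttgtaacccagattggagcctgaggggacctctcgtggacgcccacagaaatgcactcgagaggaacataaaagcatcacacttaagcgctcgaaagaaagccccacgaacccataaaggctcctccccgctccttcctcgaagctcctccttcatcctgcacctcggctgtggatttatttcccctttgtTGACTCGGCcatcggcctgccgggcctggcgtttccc
PSMD12: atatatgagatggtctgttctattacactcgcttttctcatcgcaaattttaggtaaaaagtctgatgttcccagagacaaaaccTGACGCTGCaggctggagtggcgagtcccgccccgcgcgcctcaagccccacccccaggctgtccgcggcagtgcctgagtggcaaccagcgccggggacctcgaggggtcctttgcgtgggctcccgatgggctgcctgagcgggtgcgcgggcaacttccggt
PSMB3: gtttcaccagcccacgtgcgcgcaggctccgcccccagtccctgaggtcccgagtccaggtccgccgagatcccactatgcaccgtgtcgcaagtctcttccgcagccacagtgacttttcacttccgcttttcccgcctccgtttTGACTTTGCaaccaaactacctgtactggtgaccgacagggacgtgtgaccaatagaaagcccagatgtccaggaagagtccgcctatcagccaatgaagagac

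Of the 43 genes with an entry, 15 (34.9%) held TGACNNNGC in at least 1 window. Counted over windows, the share was 28.8% of the 52 windows of these genes and 13.3% of all 35116 windows of the same length. It was held by 5 of the 21 genes that rose in hyperoxia and by 10 of the 22 others. CCAAT, the box bound by NF-Y, was found in 46.5% of the genes (38.5% of their windows, 34.6% of all windows), among them 11 of the 21 that rose and 9 of the 22 others. CCGGAAG, a core of sites bound by ETS factors, was found in 37.2% of the genes (30.8% of their windows, 10.3% of all windows), 8 of the 21 that rose and 8 of the 22 others. The 22 others include PSMA8 and PSMB11, which were under 1 TPM and not tested. PSMB11 held CCAAT, PSMA8 held CCGGAAG, and neither held TGACNNNGC. All of these are matches of letters and describe the windows only.

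Of the 47 tested genes, 24 were higher in hyperoxia, 0 were lower and 23 did not pass the test (limma on log2(TPM + 1), Benjamini-Hochberg adjusted p under 0.05 over all 14520 genes tested). Of all genes tested, 11.7% were called higher and 5.63% lower. The median log2 fold change of the 47 genes was 0.12, against 0.03 over all genes tested. Each rise was small: the called genes rose by 6.65% to 25.5% in mean TPM and none reached 1.5-fold. The 2 groups did not overlap, with every hyperoxia sample above every normoxia sample, in 14 of the 47 genes, against 6.2% of all genes tested, and no member had every hyperoxia sample below every normoxia sample, against 2.58% of all genes. At an unadjusted p under 0.05 there were 29 genes (61.7%, against 30.7% of all genes tested), and 39 of the 47 fold changes were positive (83%, against 57.1%). A TPM is a share of the sequenced RNA, so more proteasome RNA per cell and less of other RNA cannot be told apart.

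The count depends on how the samples are scaled to each other. With median-of-ratios scaling 13 genes were called higher and 0 lower, and trimmed-mean scaling called the same 13 (PSMA1, PSMA5, PSMC1, PSMC2, PSMC4, PSMC6, PSMD2, PSMD3, PSMD4, PSMD7, PSMD11, PSMD12 and PSMG4). These are 10 of the 17 subunits of the 19S regulator that carry PSM symbols, 2 alpha subunits and 1 core chaperone. Over all genes the calls with median-of-ratios scaling were 8.81% higher and 8.79% lower.

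The rises lay mostly among the subunits of the 26S particle. Of its 31 standard subunits with PSM symbols, 23 rose, with a median log2 fold change of 0.16. Of the 16 tested members outside the particle (immunoproteasome subunits, chaperones, activators and the inhibitor), 1 rose (6.25%), with a median of 0.008. ADRM1 of the base and SEM1 of the lid carry other symbols and are described with the associated genes. Over all genes tested 11.7% were called higher and the median was 0.03. These are counts side by side, and the difference between the sets was not tested. The 17 subunits of the 19S regulator with PSM symbols had positive fold changes throughout, 13 rose and 11 did not overlap between groups. The 14 standard subunits of the 20S core included 10 that rose and 3 that did not overlap. Of all genes tested, 6.2% had every hyperoxia sample above every normoxia sample.

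**Figure D1:**
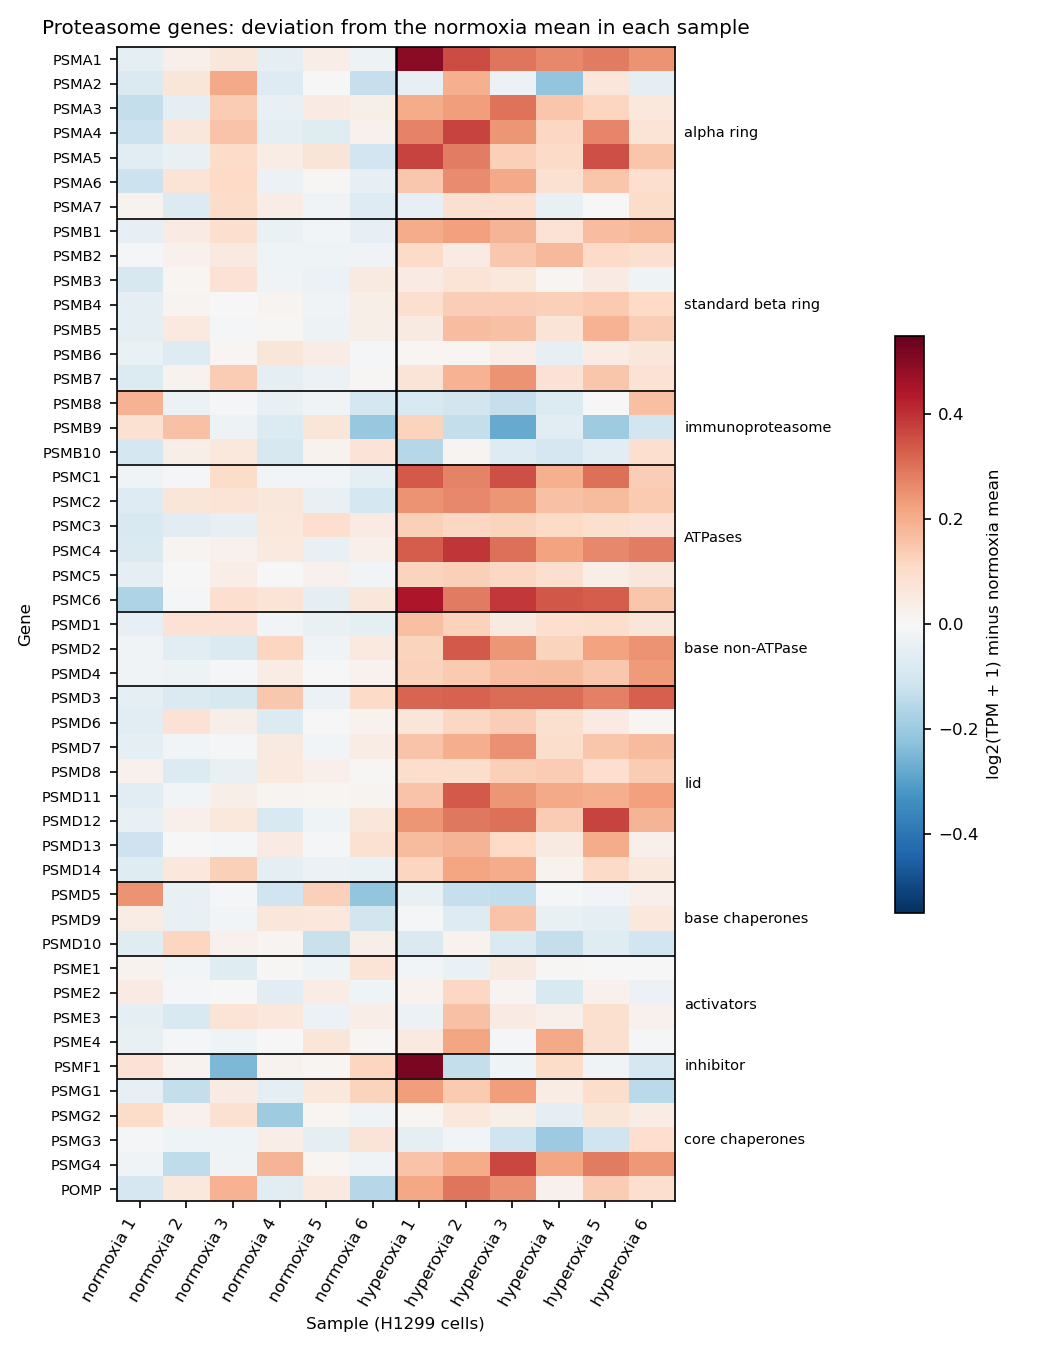
Each row is a tested gene and each column a sample, and the colour gives log2(TPM + 1) minus the normoxia mean of that gene (red above, blue below). The hyperoxia columns are red through most rows of the alpha ring, ATPases, base and lid, and mixed in the rows of the immunoproteasome, base chaperones, activators and inhibitor.

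Summed TPM gives the level of each class in units of RNA. The 17 PSM genes of the 19S regulator summed to 3953 to 4152 TPM in normoxia (median 4070). In hyperoxia they summed to 4489 to 4711 TPM (median 4599), a difference in means of 13.4%. No sample of one group reached the other. The standard 20S core summed to 3936 to 4360 TPM (median 4073) in normoxia and 4297 to 4665 TPM (median 4495) in hyperoxia, 9.28% higher in the mean, and here the groups overlapped, normoxia sample 3 lying above the lowest hyperoxia sample. By class the mean sum differed by 15.9% for the ATPases, 13.3% for the other base subunits, 10.9% for the lid, 10.9% for the alpha ring and 8.22% for the standard beta ring. All 49 genes together made up 0.914% to 0.973% of total TPM in normoxia and 1.00% to 1.07% in hyperoxia.

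**Figure D2:**
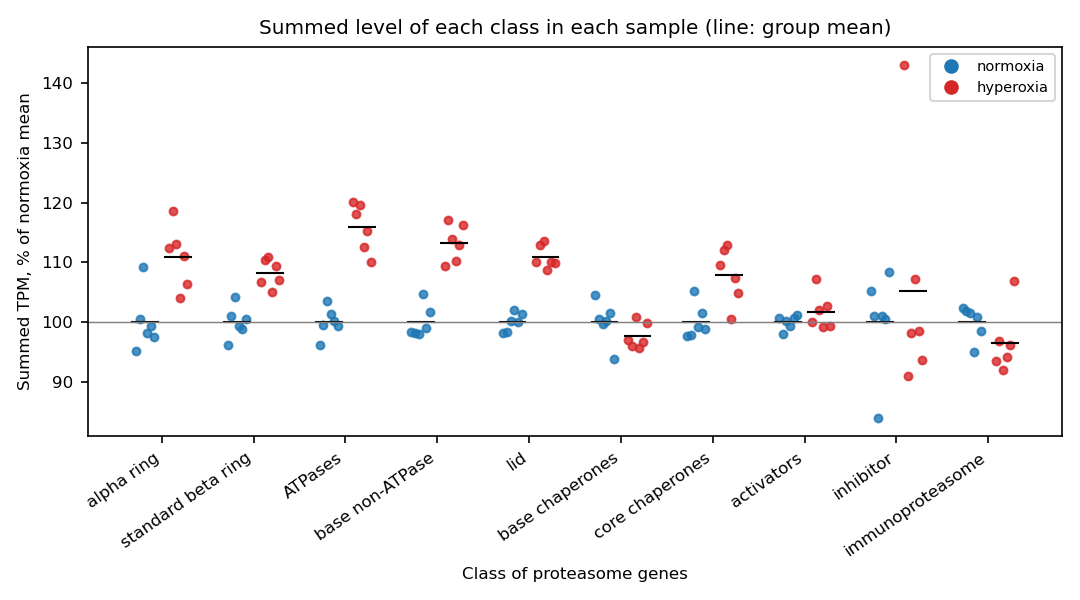
Points are the summed TPM of each class in each sample as a percent of the normoxia mean of that class, and lines are group means. Hyperoxia samples of the standard beta ring, ATPases, base non-ATPase subunits and lid lie above all normoxia samples. Those of the alpha ring, base chaperones, core chaperones, activators, inhibitor and immunoproteasome overlap the normoxia range.

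Of the 7 alpha ring genes, 5 rose (PSMA1, PSMA3, PSMA4, PSMA5 and PSMA6), and the class median log2 fold change was 0.18. PSMA1, an alpha subunit, had among the largest rises of the family. Its level was 176.7 to 191.6 TPM in normoxia (median 183.3) and 217.6 to 259.2 TPM in hyperoxia (median 224.4), with the highest value in hyperoxia sample 1. The groups lay apart (183.4 ± 6.24 against 230.1 ± 15.5 TPM, mean ± SD, n = 6 each), and the log2 fold change was 0.32 ± 0.04 (SE, adjusted p = 0.00026). PSMA4, an abundant alpha subunit, had 354 to 429 TPM in normoxia (median 381) and 405 to 499 TPM in hyperoxia (median 460). Its ranges overlapped, 4 of 6 hyperoxia samples exceeding all normoxia samples, and the log2 fold change was 0.22 ± 0.06 (adjusted p = 0.0153).

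PSMA5 had the lowest level of the ring, 43.9 to 50.7 TPM in normoxia (median 47.3) and 50.8 to 61.5 TPM in hyperoxia (median 55.1). The ranges did not overlap, but they were separated only by 50.70 against 50.83 TPM, and the log2 fold change was 0.23 ± 0.06 (adjusted p = 0.0134). PSMA3 (log2 fold change 0.18, adjusted p = 0.0254) and PSMA6 (0.16, adjusted p = 0.0234) rose with overlapping groups. PSMA2 was at 193.5 ± 17.0 against 191.7 ± 18.4 TPM and PSMA7 at 419.6 ± 20.02 against 429.3 ± 20.5 TPM. Neither passed the test, and the 95% intervals of the log2 difference ran from -0.16 to 0.13 for PSMA2 and from -0.05 to 0.12 for PSMA7. PSMA3 has an antisense neighbour, PSMA3-AS1, at a mean of 14.7 TPM (7.08% of PSMA3); the use of strand in counting is not stated, so reads of the pair may not be told apart.

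Of the 7 standard beta ring genes, 5 rose (PSMB1, PSMB2, PSMB4, PSMB5 and PSMB7), and the class median log2 fold change was 0.12, the largest being 0.17. With median-of-ratios scaling 0 of the 7 passed. PSMB4, a structural subunit of the ring without an active site, was at 561 to 592 TPM in normoxia (median 583) and 617 to 640 TPM in hyperoxia (median 635). It was the only gene of this ring whose groups did not overlap. The log2 fold change was 0.12 ± 0.02 (adjusted p = 0.00184). PSMB1, likewise without an active site, had the largest change of the ring, from 489 to 538 TPM (median 496) to 534 to 590 TPM (median 574). In 5 of 6 hyperoxia samples it exceeded all normoxia samples, and the log2 fold change was 0.17 ± 0.03 (adjusted p = 0.00263).

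Of the standard active-site subunits, PSMB5 and PSMB7 rose and PSMB6 did not pass. PSMB5, the chymotrypsin-like subunit and the main target of bortezomib, was at 216 to 233 TPM in normoxia (median 224) and 232 to 256 TPM in hyperoxia (median 249). The overlap was in the lowest hyperoxia sample alone, and the log2 fold change was 0.13 ± 0.03 (adjusted p = 0.0124). PSMB7, the trypsin-like subunit, was at 445 to 516 TPM (median 464) and 492 to 556 TPM (median 508). Normoxia sample 3 lay within the hyperoxia range, and the log2 fold change was 0.14 ± 0.04 (adjusted p = 0.0365), a call lost in 8 of the 12 fits that leave out 1 sample (adjusted p up to 0.077). PSMB6, the caspase-like subunit, was at 281 to 309 TPM (median 295) and 286 to 308 TPM (median 299.9), with nearly identical ranges. Its log2 fold change was 0.02, with a 95% interval from -0.04 to 0.08 (adjusted p = 0.709). PSMB3 did not pass either (0.03, adjusted p = 0.488), and PSMB2 rose by 0.11 (adjusted p = 0.0193).

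The immunoproteasome subunits were present at low levels and none rose. PSMB8, the inducible counterpart of PSMB5, was at 24.7 to 30.3 TPM in normoxia (median 25.96) and 24.2 to 29.8 TPM in hyperoxia (median 25.0). PSMB9, the counterpart of PSMB6, had the lowest level of the tested genes, 8.26 to 10.9 TPM (median 9.85) and 7.84 to 10.7 TPM (median 8.88). PSMB10, the counterpart of PSMB7, was at 37.4 to 42.2 TPM (median 40.8) and 35.8 to 42.7 TPM (median 38.2). In all 3 genes the groups overlapped over most of their range. The log2 fold changes were -0.04 for PSMB8 (95% interval -0.16 to 0.09, adjusted p = 0.73), -0.11 for PSMB9 (-0.27 to 0.06, adjusted p = 0.38), the lowest of the family, and -0.05 for PSMB10 (-0.15 to 0.06, adjusted p = 0.571). PSMB8 also has an antisense neighbour in the table, PSMB8-AS1, at a mean of 1.04 TPM.

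The ratio of each inducible subunit to the standard one it replaces tests unequal change directly. PSMB10 amounted to 8.55 ± 0.335% of PSMB7 in normoxia and 7.54 ± 0.598% in hyperoxia (mean ± SD, n = 6 each). In 5 of 6 hyperoxia samples the ratio was below all normoxia samples; the log2 ratio differed by -0.18 (exact two-sided permutation test, p = 0.0108, adjusted p = 0.0325 over the 3 pairs). PSMB8 amounted to 11.8 ± 1.16% of PSMB5 in normoxia and 10.5 ± 0.884% in hyperoxia, a log2 difference of -0.17 that did not pass after adjustment (exact permutation p = 0.0411, adjusted p = 0.0617). PSMB9 amounted to 3.31 ± 0.401% of PSMB6 in normoxia and 3.01 ± 0.358% in hyperoxia (log2 difference -0.13, exact permutation p = 0.19, adjusted p = 0.19). The smallest p this design allows is 0.00216. The call on PSMB10 to PSMB7 was lost without normoxia sample 5 (adjusted p = 0.0519) and without hyperoxia sample 1, 3 or 5 (adjusted p = 0.0584 each). The PSMB8 to PSMB5 ratio passed without normoxia sample 6 (-0.19, adjusted p = 0.0422) or hyperoxia sample 6 (-0.21, adjusted p = 0.00649).

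**Figure D3:**
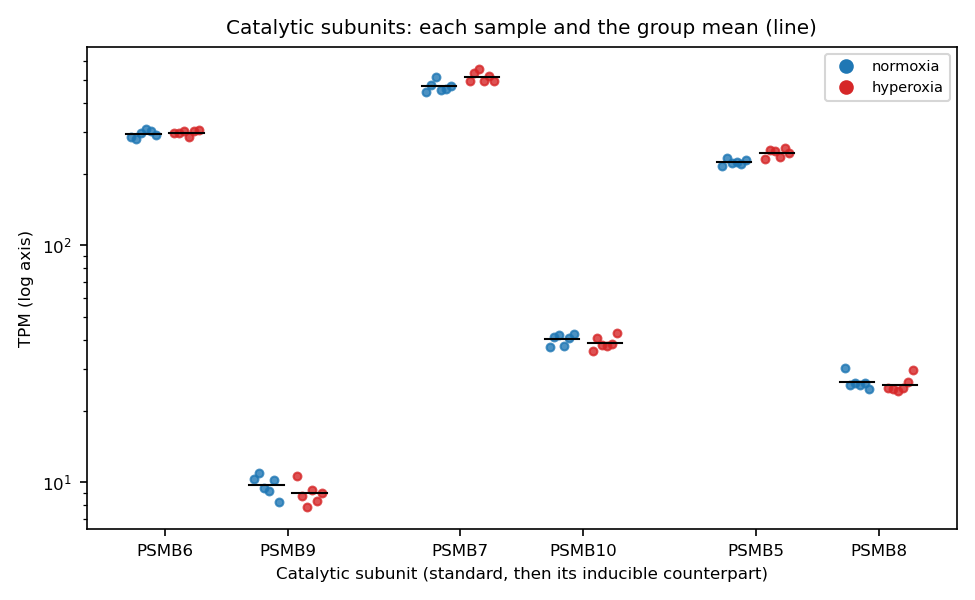
TPM on a log axis of the standard active-site subunits (PSMB6, PSMB7, PSMB5), each followed by its inducible counterpart (PSMB9, PSMB10, PSMB8), with 1 point per sample and lines at group means. The inducible subunits lie at 3.01% to 11.8% of their standard counterparts in group means, and of the 6 genes PSMB5 and PSMB7 passed the test.

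Of the 2 tissue-restricted core subunits, PSMB11, the beta subunit of thymic cortical epithelium, was listed at 0 in all 12 samples. PSMA8, the alpha subunit of germ cells, was listed at 0 apart from 0.04 TPM in hyperoxia sample 4. Neither was tested.

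All 6 ATPases of the base rose, with a median log2 fold change of 0.24, and 4 of the 6 (PSMC1, PSMC2, PSMC4 and PSMC6) also passed with median-of-ratios scaling. PSMC6 had the largest fold change of the family on the log2(TPM + 1) scale, and PSMA1 was equal to it within rounding. It was at 84.3 to 101.4 TPM in normoxia (median 96.8) and 105.7 to 129.8 TPM in hyperoxia (median 120.3). Every hyperoxia sample was above every normoxia sample, and the log2 fold change was 0.32 ± 0.05 (adjusted p = 0.00158). PSMC4 had the smallest p of all members, with 247 to 271 TPM in normoxia (median 264) and 305 to 343 TPM in hyperoxia (median 319). The groups lay apart, and the log2 fold change was 0.30 ± 0.03 (adjusted p = 7.36e-05).

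PSMC1 was the most abundant ATPase, at 563 to 624 TPM in normoxia (median 577) and 641 to 745 TPM in hyperoxia (median 711). The groups did not overlap (log2 fold change 0.27 ± 0.04, adjusted p = 0.000602). The value is uncertain, because the pseudogene PSMC1P5 was listed at 109.1 TPM on average (17.0% of PSMC1; mean 87.9 TPM under normoxia against 130.4 TPM, log2 fold change 0.59 ± 0.25, adjusted p = 0.122) and PSMC1P1 at 31.1 TPM (4.84% of PSMC1), and reads of near-identical copies may be divided between them. No other of the 35 pseudogenes listed for the family reached a mean of 1 TPM. PSMC2 rose without overlap (0.21, adjusted p = 0.00402).

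PSMC5 had the smallest called change (0.09, adjusted p = 0.0225), with 5 of 6 hyperoxia samples above the normoxia range. PSMC3 was at 224 to 254 TPM in normoxia (median 238) and 252 to 260.5 TPM in hyperoxia (median 257). Normoxia samples 1 to 3 lay at 224 to 230.4 TPM and samples 4 to 6 at 246 to 254 TPM. Of these only sample 5, at 254.08 TPM, reached into the hyperoxia range. Its call (0.11, adjusted p = 0.0424) was lost in 9 of the 12 fits that leave out 1 sample (adjusted p up to 0.0914).

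Of the other base subunits with PSM symbols, PSMD2 and PSMD4 rose and PSMD1 did not pass. PSMD4 is a receptor for ubiquitin chains. It was at 347 to 364 TPM in normoxia (median 352) and 386 to 416 TPM in hyperoxia (median 395). The groups did not overlap and the log2 fold change was 0.17 ± 0.02 (adjusted p = 0.000649). PSMD2, a scaffold of the base, was at 327 to 375 TPM (median 341) and 376.2 to 437 TPM (median 407). It was separated by a narrow margin, the highest normoxia sample reaching 374.95 TPM against 376.21 TPM in the lowest hyperoxia sample (log2 fold change 0.22 ± 0.04, adjusted p = 0.00439). PSMD1, the other large scaffold, was at 104.9 to 114.8 TPM (median 106.5) and 112.4 to 122.1 TPM (median 116.1), with 4 of 6 hyperoxia samples above the normoxia range (0.10 ± 0.03, adjusted p = 0.0633).

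Of the 8 lid genes, 5 rose (PSMD3, PSMD7, PSMD8, PSMD11 and PSMD12), each without overlap between groups, and the class median was 0.15. PSMD3, a scaffold subunit of the lid whose promoter is printed above, was at 112.4 to 132.4 TPM in normoxia (median 115.9) and 145.0 to 150.4 TPM in hyperoxia (median 148.7). Its hyperoxia values lay close together (CV 1.32%, the lowest of all members), while normoxia samples 4 and 6 stood above the other normoxia samples at 132.4 and 128.7 TPM. The log2 fold change was 0.31 ± 0.04 (adjusted p = 0.000359). PSMD12, a scaffold subunit whose promoter is also printed, was at 63.4 to 70.3 TPM (median 67.3) and 74.2 to 87.2 TPM (median 81.1), with a log2 fold change of 0.26 ± 0.04 (adjusted p = 0.00156). PSMD11, another scaffold subunit, was at 58.5 to 62.2 TPM (median 61.4) and 68.1 to 77.1 TPM (median 70.9), with a log2 fold change of 0.23 ± 0.03 (adjusted p = 0.000662).

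PSMD8 was the most abundant member of the family, at 647 to 708 TPM in normoxia (median 689) and 727 to 751 TPM in hyperoxia (median 738), and its rise was small (0.12, adjusted p = 0.00766). PSMD7, the inactive partner of the lid's deubiquitinase, rose by 0.17 (adjusted p = 0.00194). The deubiquitinase itself, PSMD14, was at 276.2 ± 15.1 TPM in normoxia and 300.5 ± 16.5 TPM in hyperoxia and did not pass (0.12, 95% interval 0.03 to 0.21, adjusted p = 0.0716). PSMD13 (0.13, adjusted p = 0.0526) and PSMD6 (0.08, adjusted p = 0.147) also missed the threshold. All 3 had unadjusted p under 0.05, and in each the groups overlapped.

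**Figure D4:**
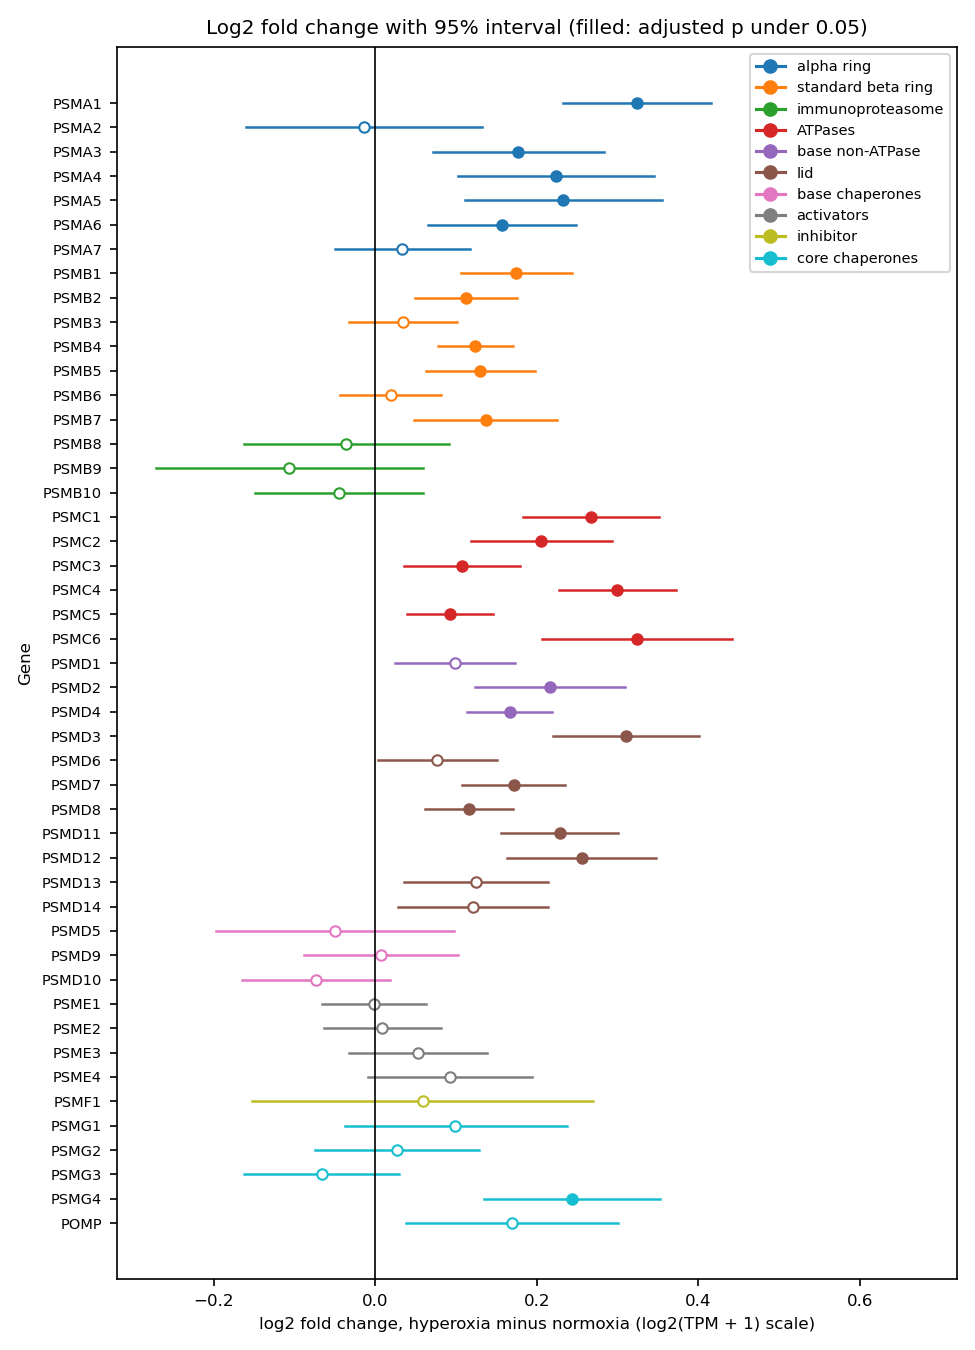
Points are the log2 fold change of each tested gene on the log2(TPM + 1) scale, hyperoxia minus normoxia, with 95% intervals from the limma fit, coloured by class. Filled points passed an adjusted p of 0.05. The 24 filled points lie between 0.09 and 0.32, and none lies below 0.

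The chaperones that assemble the base did not rise. PSMD10 (gankyrin) was at 54.6 to 64.7 TPM in normoxia (median 60.4) and 54.4 to 60.5 TPM in hyperoxia (median 56.3), a log2 difference of -0.07 with a 95% interval from -0.17 to 0.02 (adjusted p = 0.262). PSMD5 was at 42.1 to 58.5 TPM (median 48.2) and 44.6 to 50.1 TPM (median 48.2), and its normoxia samples varied the most of all members in that group (CV 12%). PSMD9 was at 77.8 to 87.3 TPM (median 84.3) and 79.6 to 93.3 TPM (median 82.1). The groups overlapped in all 3, with log2 differences of -0.05 for PSMD5 (adjusted p = 0.667) and 0.008 for PSMD9 (adjusted p = 0.934).

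Among the chaperones that assemble the core, PSMG4 rose and PSMG1, PSMG2, PSMG3 and POMP did not pass. PSMG4, which acts with PSMG3 in building the alpha ring, was at 71.0 to 89.3 TPM in normoxia (median 77.4) and 87.6 to 101.2 TPM in hyperoxia (median 91.8). Normoxia sample 4 was the only one to reach the hyperoxia range, and the log2 fold change was 0.24 ± 0.05 (adjusted p = 0.00542). Its partner PSMG3 was at 89.2 to 97.2 TPM (median 91.2) and 80.2 to 98.5 TPM (median 87.3), with 4 of 6 hyperoxia samples below the normoxia range (-0.07, 95% interval -0.16 to 0.03, adjusted p = 0.345). POMP, the chaperone of beta ring assembly, was at 136.6 to 174.1 TPM (median 152.3) and 154.7 to 186.8 TPM (median 172.3). Its groups overlapped and the log2 difference of 0.17 ± 0.06 missed the threshold (adjusted p = 0.0741); it passed without normoxia sample 3 (0.21, adjusted p = 0.0244) and without hyperoxia sample 4 (0.20, adjusted p = 0.0429). PSMG1 was at 88.2 ± 5.69 and 94.7 ± 9.08 TPM (0.10, adjusted p = 0.32) and PSMG2 at 58.0 ± 4.20 and 59.0 ± 1.76 TPM (0.03, adjusted p = 0.747). The antisense gene PSMG3-AS1 was listed at 3.40 TPM on average, 3.77% of PSMG3.

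None of the 4 activator genes passed the test. PSME1 and PSME2, which form the interferon-inducible PA28 cap, differed by less than the spread between samples: 90.3 ± 3.00 against 90.2 ± 1.86 TPM for PSME1 (95% interval of the log2 difference -0.07 to 0.06) and 184.4 ± 5.00 against 185.7 ± 8.47 TPM for PSME2 (-0.06 to 0.08, adjusted p = 0.897). PSME3, the nuclear PA28 subunit, was at 99.6 ± 4.52 and 103.4 ± 4.90 TPM (0.05, adjusted p = 0.404). PSME4 (PA200) was at 28.3 to 30.5 TPM in normoxia (median 29.0) and 28.9 to 34.0 TPM in hyperoxia (median 30.6). Only 3 of its 6 hyperoxia samples were above the normoxia range, and the log2 difference was 0.09 ± 0.05 (adjusted p = 0.205). The inhibitor PSMF1 (PI31) varied the most of the tested members within hyperoxia (CV 18.5%), with 136.3 TPM in sample 1 against 86.6 to 102.0 TPM in the others and a normoxia range of 79.9 to 103.3 TPM (median 96.2). Its log2 difference of 0.06 had a 95% interval from -0.15 to 0.27 (adjusted p = 0.733).

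The members' deviations within the groups are described by class, and differences between classes were not tested. Taking each sample's deviation from its own group mean over the 12 samples, the median correlation between pairs of genes was 0.49 in the alpha ring (21 pairs), 0.49 among the ATPases (15 pairs), 0.33 in the lid (28 pairs), 0.17 in the standard beta ring, 0.11 among the immunoproteasome subunits (3 pairs), 0.0 among the core chaperones, -0.01 among the activators and -0.44 among the base non-ATPase subunits (3 pairs). Over all 1081 pairs of members it was 0.13, with single pairs from -0.83 to 0.94. These values are descriptive, since all genes of a sample share its library and scaling. Normoxia sample 3 held its group's highest value in 19 of the 47 genes (11 of the 14 core genes), and normoxia sample 1 the lowest in 18. In hyperoxia, sample 2 was highest in 16 genes and sample 4 lowest in 15.

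Genes that act on or with the proteasome were taken from a list of 18. Of these, 8 rose, 0 fell and 10 did not pass, with a median log2 fold change of 0.12, against 11.7% higher, 5.63% lower and a median of 0.03 over all genes tested. PITHD1, a protein that binds the proteasome, was at 33.0 to 35.2 TPM in normoxia (median 33.8) and 41.6 to 49.0 TPM in hyperoxia (median 44.2), above the range of the members' own changes at 0.38 ± 0.04 (adjusted p = 4.37e-05). ZFAND5, a proteasome activator, was at 61.9 to 70.4 TPM (median 67.7) and 75.6 to 85.9 TPM (median 79.3), a log2 fold change of 0.25 ± 0.04 (adjusted p = 0.00149). SEM1, a small lid subunit outside the PSM symbols, was at 658 to 757 TPM (median 726) and 778 to 904 TPM (median 805), a log2 fold change of 0.19 ± 0.04 (adjusted p = 0.00615). None of these 3 overlapped between groups. The others that rose were UCHL5, AKIRIN2, UBQLN1, UBQLN4 and NUB1, while ADRM1, a ubiquitin receptor of the base, was at 241.0 ± 15.0 and 247.8 ± 6.47 TPM (0.04, adjusted p = 0.512).

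Of 17 genes that regulate proteasome genes or the factors NFE2L1 and NFE2L2, 5 rose, 0 fell and 12 did not pass (median 0.09), beside the same 11.7% higher and median of 0.03 over all genes. MAFF, a small MAF partner of those factors, was at 10.0 to 11.8 TPM in normoxia (median 10.7) and 16.1 to 19.3 TPM in hyperoxia (median 17.2), a log2 fold change of 0.63 ± 0.05 (adjusted p = 7.41e-06). KEAP1, the adaptor that targets NFE2L2 for degradation, was at 42.1 to 51.8 TPM (median 45.1) and 55.04 to 65.1 TPM (median 57.0), with a log2 fold change of 0.35 ± 0.06 (adjusted p = 0.00141). MAFK, another small MAF, was at 26.4 to 29.7 TPM (median 27.8) and 30.7 to 33.8 TPM (median 32.9), with a log2 fold change of 0.22 ± 0.04 (adjusted p = 0.00252). In each of these the groups lay apart. NGLY1 and UFD1 also rose. NFE2L1 was at 78.8 ± 7.09 and 82.8 ± 4.32 TPM (0.07, adjusted p = 0.428) and NFE2L2 at 77.7 ± 5.00 and 78.2 ± 2.57 TPM (0.01, adjusted p = 0.885), both with overlapping groups. These are transcript levels, and the protein levels of the factors were not measured.

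UBB, a polyubiquitin gene chosen after its values were seen, was at 1582 to 1720 TPM in normoxia (median 1621) and 1420.3 to 1534 TPM in hyperoxia (median 1462). The groups did not overlap, and it fell by 0.15 on the log2 scale (SE 0.03, adjusted p = 0.00232).

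The authors' deposited table gives its own fold change and p-value per gene. Of the 47 members, 20 in the authors' deposited table were higher and 1 lower at an adjusted p under 0.05, against 15.7% higher and 14.3% lower of all genes tested here, and 19 of the 24 genes called here were among the 20. Called from TPM alone were PSMA3, PSMA5, PSMA6, PSMB7 and PSMC5. Called in the authors' deposited table alone were PSME4 (higher, adjusted p = 0.0282) and PSMD10 (lower, log2 fold change -0.14, adjusted p = 0.0196). None of the members was among the 357 genes that the authors' deposited table marks as changed; the smallest fold change among the tested genes it marks as higher was 2.01, a size that no member reached. Per member, the log2 ratio of the mean TPM exceeded the log2 fold change of the authors' deposited table by more than 0.08 in 4 genes. The excess was 0.12 in PSMA5, 0.11 in PSMC1, 0.10 in PSMA1 and 0.09 in PSMC6, against a median of 0.02 over all genes. The order of the members therefore depends on the measure. Among tested members the largest log2 fold changes in the authors' deposited table were those of PSMD3 (0.279) and PSMC4 (0.278). PSMC6 was at 0.239 there, PSMA1 at 0.229 and PSMC1 at 0.159.

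**Figure D5:**
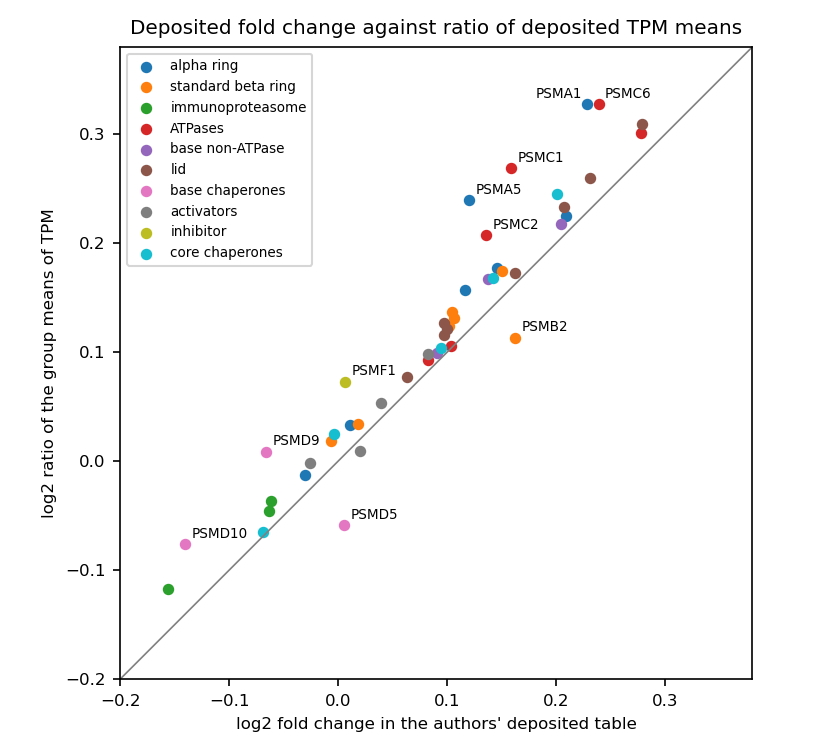
Each point is a member, with the log2 fold change of the authors' deposited table on the x axis and the log2 ratio of the group means of TPM on the y axis; the line marks equal values. Most points lie just above the line, and PSMA5, PSMC1, PSMA1 and PSMC6 lie farthest above it.

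Across the series, TPM summed to 996138 to 998797 per sample, 14275 to 14635 genes reached 1 TPM, and the sequencing depth is unknown because TPM keeps none. The epithelial keratins KRT8 (551 to 625.5 TPM) and KRT18 (891 to 995 TPM) were high and VIM was at 2750 to 3523 TPM, while EPCAM, CDH1 and KRT19 stayed under 1 TPM. Of the lung epithelium markers, SFTPC and SCGB1A1 were listed at 0 and NKX2-1 reached at most 0.78 TPM, so defining markers of lung epithelium were at or near 0. The 4 leukocyte markers summed to 39.6 to 50.4 TPM in normoxia and 39.2 to 50.8 TPM in hyperoxia, nearly all of it CD68, with CD3E at 0 and PTPRC at 0.03 TPM or less. The 3 fibroblast markers summed to 1.35 to 2.41 and 1.12 to 2.31 TPM, the 2 endothelial markers to 1.55 TPM at most and the 2 erythroid markers to 0.17 TPM at most, with HBB at 0. In fits chosen after seeing the data, 15 members were called higher without normoxia samples 4 to 6 (6.89% of all genes), against 17 without normoxia samples 1 to 3 (5.43% of all genes).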

How the data were processed

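RNA from H1299 cells was measured in 12 samples, grouped by the treatment labels. The deposited values are TPM, per the file headers, with aligner, annotation and TPM method not given in the sources used here. Per the submitters' processing notes, the authors used HTSeq 0.9.1 for counting and edgeR 3.16.5, and a mouse build is listed although the identifiers are human Ensembl ones. The labels and the design text name different library kits. For each gene the authors deposited a p-value, raw and adjusted, with the fold change on linear and log2 scales; in 78 rows the deposited numbers disagree with each other, and none of the 78 is a member.

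Genes with a mean of at least 1 TPM were tested with limma 3.58.1 (R 4.3.3; lmFit, eBayes with trend, two-sided) on log2(TPM + 1), a scale that understates the change of low genes. P-values were adjusted over 14520 genes, with a threshold of 0.05. The 3 subunit ratios were tested by exact enumeration of the sample labels in Python 3.11.15. The step was tested on simulated data. Members and lists were chosen with earlier results of these data known. By rule, every member is accounted for in its class and full values go to the 3 members of each class with the smallest p, the largest and smallest fold change, PSMB5 to PSMB11, PSMA8, PSME4, PSMF1, POMP, NFE2L1, NFE2L2 and up to 3 genes of the lists of associated genes and regulators; PSMC3, PSMD8, PSMG3, UBB, the pseudogenes and the antisense genes were singled out after their values were seen. Alternatives covered pseudocount, filter, scaling, variance model, a rank test, a replicate block and left-out samples. Some genes are not reported here.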

Additional observations from a re-analysis of the deposited data

Results flagged for a closer look

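In a group of 6 samples, a value was picked out when its gap to the nearest other sample exceeded 0.625 of the group's range. This happened in 4 of 94 member and group pairs (4.26%), against 6.22% of 29040 over all tested genes; chance alone picks out about 1 in 20.

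PSMB8 was at 30.34 TPM in normoxia sample 1, against 24.69 to 26.34 TPM in the other normoxia samples. The log2 ratio of PSMB8 to PSMB5 stood apart in the same sample, at -2.792; without it the difference between groups was -0.12 (exact permutation test, adjusted p = 0.107). PSMC1 was at 624.47 TPM in normoxia sample 3, against 563.01 to 579.73 TPM in the others. PSMF1 was low in normoxia sample 3, at 79.89 TPM against 95.68 to 103.25 TPM, and high in hyperoxia sample 1, at 136.34 TPM against 86.55 to 101.98 TPM.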

How the results depend on the processing

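The count of members higher in hyperoxia was 24, beside 11.7% of all genes called higher. It fell to 13 with median-of-ratios scaling (8.81% of all genes) and 13 with trimmed-mean scaling (9.02%). Without normoxia samples 4 to 6, a choice made after seeing the data, it was 15 (6.89% of all genes). The cause of these falls was not tested. In the other alternatives the count lay between 17 and 28, while the share of all genes called higher ran from 3.87% to 15.5%. Over the fits that leave out 1 sample the count lay between 20 and 26 (9.16% to 10.7% of all genes). The count of lower members was 0 in all 26 alternatives; in the reported fit no member with a negative fold change had an unadjusted p under 0.05. The median log2 fold change was 0.0855 with median-of-ratios scaling and 0.0873 with trimmed-mean scaling, and 0.1033 to 0.1265 in the others. Leaving out 1 sample at a time gave 0.1075 to 0.1265. Of the 24 called members, 10 kept their call in all 26 alternatives, and 20 kept it in all 12 fits that leave out 1 sample; PSMA3, PSMA6, PSMB7 and PSMC3 lost it in 5, 2, 8 and 9 of them. POMP, PSMD1, PSMD13 and PSMD14 passed in some.

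The labels do not say whether same-numbered samples were paired. Their deviations were nearly uncorrelated (from -0.117 to 0.017), which does not settle it. With a replicate block 25 members were higher and 0 lower, beside 11.4% higher and 6.12% lower of all genes. The log2 ratio of PSMB10 to PSMB7 differed by -0.1817 and was lower in 6 of 6 same-numbered pairs. Its p was 0.0312 in the exact paired test, the smallest that 6 pairs allow (adjusted p = 0.0938). Without 1 sample that ratio ranged from -0.2208 to -0.1546, PSMB8 to PSMB5 from -0.2054 to -0.1173 and PSMB9 to PSMB6 from -0.173 to -0.0794.

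TPM keeps no depth, so counting error cannot be given. A gene that missed the threshold is not shown to be equal in both groups.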
